A study of Homo sapiens with 4 samples.

Results

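The proteasome subunit genes were described in 4 RNA-seq libraries from a glioblastoma cell line, 1 library per condition. Members were the protein-coding genes of GENCODE release 29 whose symbol is PSM followed by a letter from A to G and a number, and 48 of the 58226 gene IDs in the deposited files met this rule. They comprised 14 constitutive subunits of the core particle (7 of the alpha ring, 4 structural and 3 catalytic subunits of the beta ring), 3 immunoproteasome catalytic subunits, 2 tissue-restricted core subunits, 17 subunits of the regulatory particle (6 ATPases and 11 non-ATPases), 5 genes for activators and an inhibitor, and 7 assembly chaperones.

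The first pair of libraries came from R-U87MG, a temozolomide-resistant (TMZ-resistant) derivative of U87MG that was maintained in 50 µM TMZ, an alkylating drug, and was transfected with control siRNA (si-NC) or siRNA against the deacetylase HDAC6 (si-HDAC6). The second pair came from parental U87MG, grown without TMZ and transfected with si-NC or with siRNA against the long non-coding RNA LINC00461 (si-LINC00461). RNA was collected 72 h after transfection. Each condition was a single transfected culture of an established line, so no difference below had a replicate check and no p-value was computed.

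Total counts ran from 12596072 to 20027865 fragments per library. HDAC6 was at 17.8 counts per 1000000 library counts (CPM) in R-U87MG si-NC and at 5.32 CPM in si-HDAC6, and LINC00461 fell from 18.1 CPM in U87MG with control siRNA to 4.11 CPM in its knockdown, in the direction of the labels in both pairs. Of the markers of the line, VIM, CD44, TNC, EGFR and NES were detected in all 4 libraries, while the astrocyte and neural genes GFAP, S100B and SOX2 held at most 13 counts in any library. OLIG2, a glial lineage gene, held 92 and 115 counts in the R-U87MG libraries and 15 and 18 in the U87MG libraries, and CDKN2A, which is deleted in U87MG, held at most 9. PTPRC, which marks leukocytes, held at most 3 counts. EPCAM, an epithelial marker, held 20 to 28 counts, and PECAM1, an endothelial marker, held 433 counts in si-LINC00461 against 16 to 52 in the other libraries. In bulk RNA of this kind, fewer cells of a type and less RNA per cell cannot be told apart.

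The proteasome degrades proteins tagged with ubiquitin. Its barrel-shaped core (the 20S particle) is built of stacked alpha and beta rings, and 3 of the beta subunits, PSMB5, PSMB6 and PSMB7, cut peptide bonds. In cells exposed to interferon they are exchanged for PSMB8, PSMB9 and PSMB10, which make the immunoproteasome and shift the peptides available for antigen presentation. The regulatory particle (19S) recognises the ubiquitin chain and unfolds the substrate with a ring of ATPases, whereas the PA28 and PA200 activators open the core without ATP. Proteasome genes are known to be induced together by the transcription factor NFE2L1 through antioxidant response elements (ARE), and the immunoproteasome and PA28 alpha and beta genes through interferon response elements (ISRE).

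Because both routes act at promoters, the ARE core TGACNNNGC and the ISRE core, GAAA and GAAA separated by 2 bases of any kind, were searched on both strands of RefSeq windows reaching from 250 bases before to 50 bases after the gene start (build GRCh38.p14), which were matched for 42 of the 48 members. The ISRE core was in 6 of 42 windows (14.3%) against 3.65% of 27305 promoters of all genes, and the ARE core in 13 of 42 (31.0%) against 13.6%. CCAAT, the letters of the NF-Y box, were in 19 of 42 (45.2%) against 35.7%. A match is a description of letters, not a bound site. The windows below are those of the interferon-regulated PSMB10, PSME1 and PSME2 and of the assembly chaperones PSMG1, PSMG2 and PSMG4. PSMG4 is shown for its ISRE core, and its counting interval included 0 in each comparison below. All are written 5′ to 3′ on the gene's strand with the motif, or its reverse complement for PSME1, in capitals. The ISRE core was found for PSMB10 at chr16:67936852-67936881 (minus strand), for PSME1 at chr14:24136189-24136218 (plus), for PSME2 at chr14:24146619-24146648 (minus) and for PSMG4 at chr6:3258904-3258933 (plus). The ARE core was found for PSMG1 at chr21:39183616-39183644 (minus) and for PSMG2 at chr18:12658689-12658717 (plus).
PSMB10: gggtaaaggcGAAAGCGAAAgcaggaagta
PSME1: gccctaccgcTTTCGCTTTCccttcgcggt
PSME2: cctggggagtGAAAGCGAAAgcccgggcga
PSMG4: ttccggggccGAAAGCGAAAgcgcgctcgg
PSMG1: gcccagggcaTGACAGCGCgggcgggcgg
PSMG2: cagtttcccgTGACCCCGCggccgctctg

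PSMB10, PSME2 and PSMG4 held the same 10 letters, GAAAGCGAAA, and PSME1 held their reverse complement. The remaining ISRE matches were in the windows of PSMA4 and PSMB4. The ARE core was also in the windows of PSMB3, PSMB9, PSMC4, PSMD1, PSMD3, PSMD5, PSMD9, PSMD12, PSME1, PSME2 and PSME4, so that PSME1 and PSME2 held both motifs.

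The members together took 0.565% of all counts in R-U87MG si-NC (95% Clopper-Pearson interval 0.561% to 0.568%) and 0.570% (0.566% to 0.574%) in si-HDAC6. They took 0.421% (0.418% to 0.423%) in U87MG si-NC and 0.370% (0.367% to 0.372%) in si-LINC00461. These intervals, like all intervals below, cover counting error only, as the fragments carry no molecular identifiers. By this share of the library the R-U87MG libraries stood above the U87MG libraries, the intervals of the R-U87MG pair overlapped, and those of the U87MG pair did not. The share is taken of total counts, under which the median log2 ratio of all genes compared between the control libraries was 0.28. Part of the difference between the lines was thus shared with genes in general. The regulatory particle held the largest part, 0.327% of counts in R-U87MG si-NC, followed by the constitutive core at 0.154%, the activators and inhibitor at 0.0569% and the assembly chaperones at 0.0265%.

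**Figure D1:**
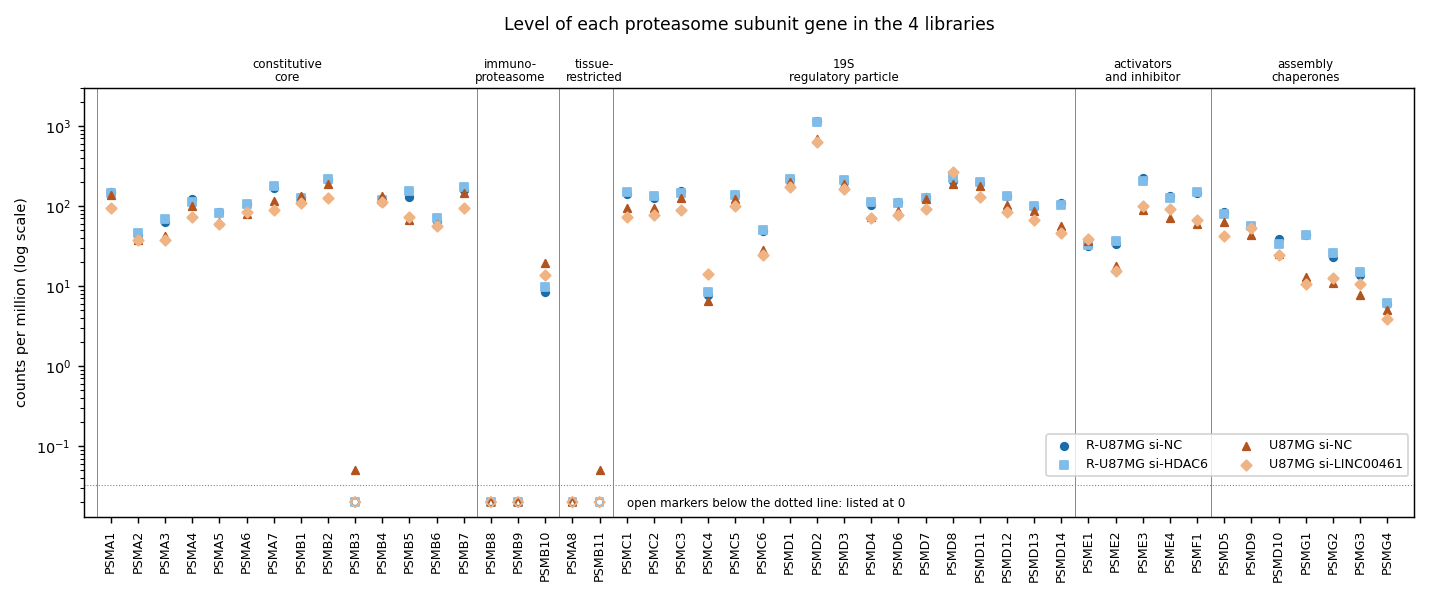
Level in CPM (log axis) of the 48 members in each of the 4 libraries, grouped by role, with 1 marker per library and open markers for values listed at 0. PSMD2 stands above all other members at 626 to 1150 CPM, while PSMB8, PSMB9 and PSMA8 are listed at 0 in every library.

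Among single members, PSMD2, which encodes the large scaffold subunit Rpn1 of the regulatory particle, was the most abundant in every library. It was at 1150 CPM in R-U87MG si-NC, 1127 CPM in si-HDAC6, 693 CPM in U87MG si-NC and 626 CPM in si-LINC00461. Its level also led per kilobase of its principal transcript, at 333 CPM per kb in R-U87MG si-NC, where PSME3 followed at 222 CPM per kb, PSMA7 at 168 CPM per kb and PSMB7 at 160 CPM per kb. Without PSMD2 the members took 0.450%, 0.457%, 0.351% and 0.307% of the 4 libraries in the same order. The order of the libraries was thus the same with and without this gene.

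The assembly chaperones PSMG1, PSMG2, PSMG3 and PSMG4, which pair up to guide the building of the core rings, were among the least abundant members with counts. In R-U87MG si-NC PSMG1 was at 43.9 CPM, PSMG2 at 23.1 CPM, PSMG3 at 13.8 CPM and PSMG4 at 5.89 CPM. The regulatory particle chaperones PSMD5, PSMD9 and PSMD10 lay higher in the same library, at 84.0, 55.3 and 38.6 CPM. Per kilobase the ranges of the 2 sets overlapped, at 7.03 to 20.4 CPM per kb for the PSMG genes and 19.9 to 25.0 CPM per kb for the PSMD chaperones.

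Of 48 members, 43 reached a mean of 1 CPM in each pair of libraries and were compared, and PSMB3, PSMB8, PSMB9, PSMA8 and PSMB11 did not. PSMA8 and PSMB11, known from testis and from thymic epithelium respectively, were at 0 counts in all libraries but for 1 count of PSMB11 in U87MG si-NC, below the 3 counts that a library with none still allows (0.150 to 0.238 CPM). PSMB8 and PSMB9 were listed at 0 in all 4 libraries, and PSMB3, a structural core subunit that every proteasome contains, was listed at 0 in 3 libraries and had 1 count in U87MG si-NC.

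The genes around these members were also at or near 0. Within 100 kb of PSMB3 (ENSG00000277791, chr17:38752736-38764231, plus strand, GRCh38), 6 of 8 other protein-coding genes held at most 3 counts in every library, among them MLLT6, PCGF2, CISD3 and CWC25. For PSMB8 (ENSG00000204264, chr6:32840717-32844703, minus strand) this held for 7 of 9 neighbours and for PSMB9 (ENSG00000240065, chr6:32844136-32859585, plus strand) for 8 of 10, including the peptide transporter gene TAP1, which was at 0 in all libraries. By comparison, 22.9% of the neighbours of the other 43 members and 28.6% of all 19790 protein-coding genes were at this level. RPL23, a ribosomal protein gene at the edge of the PSMB3 window, had 2291 to 3440 counts. None of the 50-base stretches of the principal transcripts of PSMB3, PSMB8 and PSMB9 occurred in another GENCODE gene. Whether the zeros of these 3 members reflect the cells or the making of the count table was not tested, and no fold is given for them.

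PSMC4, the ATPase Rpt3, stood below its ring partners. It had 128, 106, 130 and 254 counts in R-U87MG si-NC, si-HDAC6, U87MG si-NC and si-LINC00461, or 6.49 to 14.3 CPM, whereas the other 5 ATPases ranged from 24.2 CPM (PSMC6) to 156 CPM (PSMC3). All 6 ATPases enter the ring in equal numbers. None of the 50-base stretches of the PSMC4 transcript was shared with another gene, and 3 zinc finger genes downstream of it held 2 to 15 counts.

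The comparison of R-U87MG si-NC with U87MG si-NC asked how the TMZ-resistant line differs from its parent. PSMG1, PSME3 and PSMF1 were at least 2-fold higher in R-U87MG and PSMB10 was at least 2-fold lower. Thus 3 of 43 members were higher at this fold, where 11.2% of 13349 genes were, and 1 of 43 was lower, where 15.0% of genes were. Counting intervals lay wholly above 0 for 22 of 43 members and wholly below 0 for 14, shares of 51.2% and 32.6% beside 39.4% and 38.8% of all genes. The members are mostly well covered, which narrows their intervals. Such shares, here and below, are therefore not like for like with those of all genes. The median log2 ratio was 0.12 over the members and 0.02 over all genes compared. Scaling by total counts in place of the trimmed mean of M-values (TMM) moved every ratio up by 0.26. It took the median of all genes to 0.28 and split the members' intervals into 36 above and 3 below 0. The shares of all genes given above are by TMM and are no reference for this split. Under total counts 14 members changed from lower to higher, 10 of them with an interval below 0 by TMM. Only PSMB10, PSMB4, PSME1 and PSMB1 remained lower. The resistant line, TMZ in the medium and any difference in preparation cannot be told apart here, and the shared si-NC libraries tie this comparison to the others.

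PSMG1 (ENSG00000183527, chr21:39174769-39183851, minus strand), which with PSMG2 forms the chaperone of the alpha ring, had the highest ratio. It was at 43.9 CPM in R-U87MG si-NC, 44.0 CPM in si-HDAC6, 12.98 CPM in U87MG si-NC and 10.6 CPM in its knockdown partner. Both R-U87MG libraries thus lay above both U87MG libraries, and the log2 ratio of the controls was 1.49 (1.29 to 1.70). Its partner PSMG2 was at 23.1, 25.5, 10.8 and 12.8 CPM in the same order, with a log2 ratio of 0.84 (0.59 to 1.08). PSMG3 followed with 0.58 (0.28 to 0.89), whereas PSMG4, the partner of PSMG3, was at −0.04 (−0.46 to 0.38). Of the 7 chaperones 6 had higher values in R-U87MG (85.7%, all genes 51.1%) and 5 an interval above 0 (71.4%, all genes 39.4%), with a median of 0.34.

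Of the activators and the inhibitor, 4 of 5 had intervals above 0 (80.0%, all genes 39.4%), and the median log2 ratio was 0.65. PSME3, which encodes the nuclear activator PA28 gamma, was at 222 CPM in R-U87MG si-NC, 205 CPM in si-HDAC6, 87.8 CPM in U87MG si-NC and 98.8 CPM in si-LINC00461, a log2 ratio of 1.07 (0.99 to 1.15) between the controls. PSMF1, the inhibitor PI31, was at 147, 152, 59.6 and 66.6 CPM, with a log2 ratio of 1.04 (0.94 to 1.14). Both genes separated the R-U87MG libraries from the U87MG libraries without overlap. PSME4, the activator PA200, was at 135, 127, 71.3 and 91.8 CPM and had a log2 ratio of 0.65 (0.56 to 0.75).

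PSME1 and PSME2, which encode the alpha and beta chains of the same PA28 ring, lie next to each other on chromosome 14 and differed in opposite directions between the control libraries. PSME1 was at 31.9 CPM in R-U87MG si-NC, 32.8 CPM in si-HDAC6, 36.2 CPM in U87MG si-NC and 38.1 CPM in si-LINC00461, a log2 ratio of −0.45 (−0.61 to −0.28). PSME2 was at 33.8, 36.6, 18.0 and 15.3 CPM in the same order, a log2 ratio of 0.65 (0.46 to 0.84). For PSME2 the R-U87MG values all lay above the U87MG values. For PSME1 they lay below them, but the counting intervals of single libraries overlapped, 29.3 to 34.8 CPM in R-U87MG si-NC and 33.6 to 38.9 CPM in U87MG si-NC. Both hold the ISRE core shown above.

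PSMB10 (ENSG00000205220, chr16:67934502-67937087, minus strand), the interferon-induced counterpart of PSMB7 and the only immunoproteasome subunit with counts, had the lowest ratio. It was at 8.41 CPM in R-U87MG si-NC and 9.69 CPM in si-HDAC6 against 19.2 CPM in control U87MG and 13.8 CPM after LINC00461 knockdown, and its log2 ratio between the controls was −1.45 (−1.74 to −1.17). Per kilobase, PSMB10 made up 4.13% (3.48% to 4.86%) of the summed PSMB10 and PSMB7 level in R-U87MG si-NC and 4.36% (3.63% to 5.19%) in si-HDAC6. In U87MG its share was 9.67% (8.76% to 10.6%) with si-NC and 10.7% (9.45% to 12.1%) with si-LINC00461. The odds ratio of PSMB10 over PSMB7 was 0.402 (0.327 to 0.493) between the controls, 1.06 (0.819 to 1.37) for si-HDAC6 and 1.12 (0.938 to 1.33) for si-LINC00461. The share therefore differed between the lines beyond counting error, and for either siRNA the interval of the odds ratio included 1. PSMB10 did not have whole fragment numbers in any library, and 38.9% of its 50-base stretches occurred in the overlapping gene AC040162.1, so part of its count may belong there. With genes of fractional fragment numbers left out, no member was at least 2-fold lower.

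**Figure D2:**
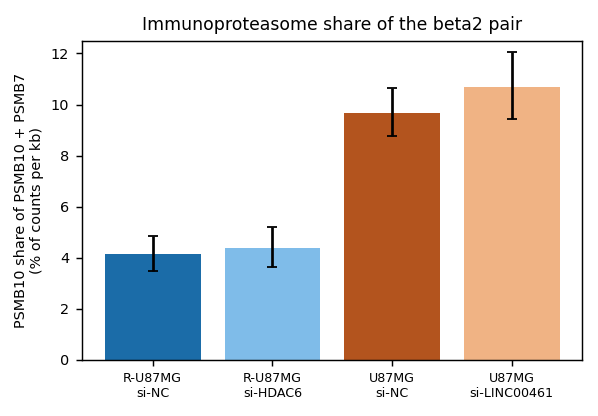
Share of PSMB10 in the summed PSMB10 and PSMB7 counts per kb of transcript (percent), with 1 bar per library and 95% Clopper-Pearson intervals as error bars. The R-U87MG libraries stand at 4.13% and 4.36% and the U87MG libraries at 9.67% and 10.7%.

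The constitutive core showed a mixture, with a median of −0.06. Intervals lay above 0 for 5 of 13 compared subunits (38.5%, all genes 39.4%) and below 0 for 6 (46.2%, all genes 38.8%). PSMB5, the chymotrypsin-like catalytic subunit, was at 131 CPM in R-U87MG si-NC, 153 CPM in si-HDAC6, 66.8 CPM in U87MG si-NC and 73.6 CPM in si-LINC00461, a log2 ratio of 0.71 (0.61 to 0.80) between the controls. PSMB6, the caspase-like subunit, was at 65.2, 70.1, 59.6 and 55.5 CPM and PSMB7 at 157, 171, 144 and 93.0 CPM in the same order of libraries. Their log2 ratios were −0.13 (−0.25 to −0.01) and −0.14 (−0.22 to −0.07), and under total-count scaling both turned positive, at 0.13 and 0.12. The 3 structural beta subunits compared had intervals below 0, with log2 ratios of −0.08 for PSMB2, −0.33 for PSMB1 and −0.49 for PSMB4. Under total counts PSMB2 was at 0.18 (0.12 to 0.25), PSMB1 at −0.07 (−0.15 to 0.02) and PSMB4 at −0.23 (−0.32 to −0.14). In the alpha ring 4 of 7 intervals lay above 0 (57.1%) and 1 below (14.3%), and the highest ratio was that of PSMA3 at 0.32.

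In the regulatory particle 8 of 17 intervals lay above 0 (47.1%, all genes 39.4%) and 6 below (35.3%, all genes 38.8%). The median was 0.03. PSMD14, the deubiquitinase Rpn11, was at 109 CPM in R-U87MG si-NC and 57.0 CPM in U87MG si-NC, a log2 ratio of 0.67 (0.57 to 0.78). PSMC6 and PSMD2 followed with 0.52 (0.37 to 0.68) and 0.47 (0.43 to 0.50). PSMD7, the partner of PSMD14 in the particle, was at −0.20 (−0.29 to −0.12), the lowest value of the group, and at 0.060 under total-count scaling. All 6 members of this group with intervals below 0 (PSMC5, PSMD1, PSMD3, PSMD7, PSMD8 and PSMD11) were above 0 by total counts.

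Several of the higher members share a chromosome. Chromosome 14 carries 8 members, of which 7 were compared, and 6 of these 7 were higher in R-U87MG, with a median log2 ratio of 0.34. Between the control libraries 58.1% of all compared members and 51.1% of all genes were higher. The other genes within 1 Mb of PSMB5 had a median log2 ratio of 0.75 (27 genes, 22 higher), close to the 0.71 of PSMB5, and those near PSMC6 a median of 0.68 (12 genes, 10 higher). The neighbours of the 7 compared members on this chromosome had medians of 0.19 to 0.75, and some of them are shared between windows. Not every member was close to its neighbours: PSME1 was at −0.45 with a median of 0.58 around it, and PSMA6 at 0.13 with 0.75. Around PSMG2 on chromosome 18 the median was 0.66 (13 genes, 9 higher). By contrast, the 45 genes near PSME3 had a median of 0.06, the 15 near PSMF1 0.25, the 9 near PSMG1 0.34 and the 45 near PSMB10 −0.26, all further from their member's own ratio. This grouping by position was made after the values were seen, and its part in the ratios was not tested.

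After knockdown of LINC00461 in U87MG, a comparison that asked what this RNA affects in the parental line, most core and regulatory subunits were lower by a small amount, and the activators PSME3 and PSME4 and the inhibitor PSMF1 were higher. Only PSMC4 was at least 2-fold higher, 1 of 43 members beside 5.42% of 13210 genes, and 0 of 43 were at least 2-fold lower beside 8.17% of genes. Intervals lay wholly below 0 for 25 of 43 members (58.1%, all genes 33.4%) and wholly above 0 for 8 (18.6%, all genes 33.1%). The median log2 ratio was −0.21 over the members, a fold of 0.865, and −0.00 over all genes.

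In the constitutive core 8 of 13 subunits had intervals below 0 (61.5%, all genes 33.4%), with a median log2 ratio of −0.23. PSMB7, the trypsin-like catalytic subunit, went from 144 CPM to 93.0 CPM and had the lowest ratio, −0.62 (−0.71 to −0.53). PSMB2 was at 187 and 126 CPM, with −0.56 (−0.64 to −0.48), and PSMA1 at 135 and 94.5 CPM, with −0.50 (−0.59 to −0.41). In both R-U87MG libraries these 3 genes lay above the si-LINC00461 value. PSMB5 was the exception among the core subunits, with an interval above 0 at 0.16 (0.04 to 0.27).

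The regulatory particle was more uniform, with 14 of 17 intervals below 0 (82.4%, all genes 33.4%) and a median of −0.24. Among the ATPases PSMC3 was lowest at −0.48 (−0.57 to −0.39), and PSMC1, PSMC2, PSMC5 and PSMC6 lay between −0.37 and −0.21. PSMC4 was opposite to its ring partners, with 6.49 CPM in the control and 14.3 CPM in the knockdown, a log2 ratio of 1.15 (0.84 to 1.47) from 130 and 254 counts. Whether its low counts, and so this ratio, reflect the cells or the making of the count table was not tested. Of the non-ATPases PSMD8, the subunit Rpn12, was also higher, at 190 and 263 CPM and a log2 ratio of 0.48 (0.42 to 0.54). PSMD11 at −0.42 and PSMD7 at −0.40 were the lowest.

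Among the activators and the inhibitor, 3 of 5 intervals lay above 0 (60.0%, all genes 33.1%) and 0 below, and the median was 0.17. PSME4 was at 71.3 CPM with control siRNA and 91.8 CPM with si-LINC00461, a log2 ratio of 0.38 (0.28 to 0.48). PSME3 followed with 0.19 (0.09 to 0.28) and PSMF1 with 0.17 (0.06 to 0.29). PSME1 was at 0.09 (−0.06 to 0.24) and PSME2 at −0.22 (−0.45 to 0.01), both with intervals that include 0. The assembly chaperones were divided, from −0.53 (−0.67 to −0.40) for PSMD5 to 0.31 (0.17 to 0.44) for PSMD9 and 0.47 (0.16 to 0.79) for PSMG3. PSMB10 was lower, at −0.46 (−0.70 to −0.22).

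In this comparison proliferation genes were lower as well. MKI67, CCNB1, CDK1, MCM2 and PCNA were all lower in si-LINC00461, with a median log2 ratio of −1.78, and their summed level was 161 CPM against 730 CPM in U87MG si-NC. In R-U87MG the same sum was 1484 CPM with si-NC and 1276 CPM with si-HDAC6. There all 5 genes were lower after HDAC6 knockdown, 4 with an interval below 0 (all genes 16.4%). Their median was −0.25, while the members' median was 0.03. The markers PTPRC, PECAM1 and EPCAM summed to 25.8 CPM in si-LINC00461 and to 3.10 to 3.99 CPM elsewhere, through PECAM1. The part of proliferation or of PECAM1-expressing cells in the members' levels was not tested.

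After knockdown of HDAC6 in R-U87MG, which asked what this deacetylase affects in resistant cells, the proteasome genes differed little. A 2-fold difference was reached by 0 of 43 members downwards (0.747% of 13120 genes) and by 0 upwards (0.694%), and a 1.5-fold difference likewise by 0 in both directions (2.52% and 2.68% of genes). Intervals lay below 0 for 6 of 43 members (14.0%, all genes 16.4%) and above 0 for 6 (14.0%, all genes 13.8%). The median log2 ratio was 0.03, beside −0.01 for all genes, and the members spanned −0.20 to 0.22.

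The highest ratio belonged to PSMB5, at 131 CPM in R-U87MG si-NC and 153 CPM in si-HDAC6, a log2 ratio of 0.22 (0.13 to 0.31). PSMB7 at 0.11 (0.03 to 0.19) and PSMD8 at 0.12 (0.05 to 0.20) also lay above 0, and the third constitutive catalytic subunit, PSMB6, was at 0.10 (−0.03 to 0.23). The lowest ratio belonged to PSMD10, which encodes the chaperone gankyrin, at 38.6 and 33.8 CPM and −0.20 (−0.38 to −0.02). PSMA4 at −0.13 (−0.23 to −0.03), PSME3 at −0.12 (−0.19 to −0.05) and PSMC3 at −0.11 (−0.20 to −0.02) followed. PSMD5, at −0.10 (−0.22 to 0.02), and PSMG2, at 0.13 (−0.09 to 0.35), had intervals that include 0. PSMB10 and PSMC4 were at 0.19 (−0.17 to 0.55) and 0.12 (−0.27 to 0.50), intervals that are wide because these genes hold 106 to 140 counts.

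**Figure D3:**
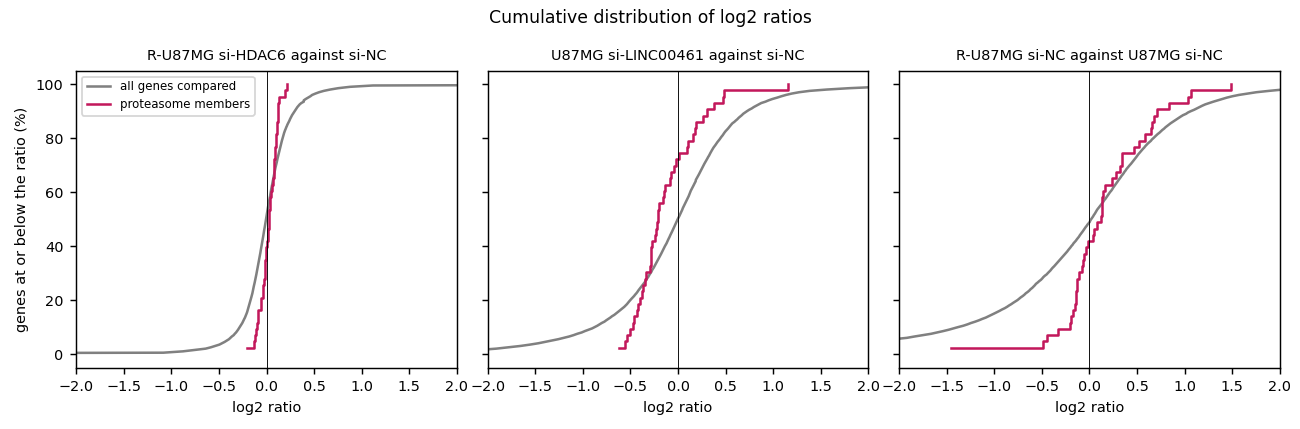
Cumulative percentage of genes at or below each log2 ratio (both axes linear) for the members and for all genes compared, in the 3 comparisons. The members' curve is steeper than that of all genes in each panel and is displaced to the left in the middle panel, where the members' median is −0.21.

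The members were less spread than all genes in each comparison. Their middle 50% ran from −0.03 to 0.09 in the HDAC6 comparison (all genes −0.13 to 0.13), from −0.36 to 0.05 in the LINC00461 comparison (all genes −0.38 to 0.35) and from −0.13 to 0.40 between the control libraries (all genes −0.59 to 0.54). The members are mostly well covered, and a smaller counting error narrows a spread by itself, so how much of this is a property of the genes was not tested.

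Ratios of the members with a promoter motif were as follows. The 11 compared members with the ARE core had a median log2 ratio of 0.13 between the control libraries, beside 0.12 for all members. Of these members 7 were higher and 4 lower (all genes 51.1% and 48.9%), from −0.45 (PSME1) to 1.49 (PSMG1). The 16 compared members with CCAAT had a median of 0.13 there, 10 higher and 6 lower. In the LINC00461 comparison the median was −0.20 with the ARE core and −0.18 with CCAAT, beside −0.21 for all members. The 6 members with the ISRE core had a median of −0.24 between the controls, which combined −1.45 for PSMB10, −0.49 for PSMB4 and −0.45 for PSME1 with −0.04 for PSMG4, 0.04 for PSMA4 and 0.65 for PSME2. After LINC00461 knockdown 5 of these 6 were lower (all genes 50.2%), and PSMA4, PSMB4 and PSMB10 had an interval below 0 (3 of 6, all genes 33.4%). The median of the 6 was −0.31, beside −0.21 for all members. After HDAC6 knockdown 5 of the 6 were higher (all genes 48.9%) with no interval above 0 (all genes 13.8%). PSMA4 had an interval below 0 (all genes 16.4%), and the median was 0.06, beside 0.03 for all members.

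Genes that act with the proteasome were examined as lists. Their interval counts stand beside 39.4% of all genes above 0 and 38.8% below 0 between the control libraries. After LINC00461 knockdown these shares were 33.1% and 33.4%. Of 10 other proteasome proteins, 5 had intervals above 0 and 4 below 0 between the control libraries, and UCHL5, a deubiquitinase of the regulatory particle, was 2-fold higher in R-U87MG at 59.9 CPM against 22.4 CPM, a log2 ratio of 1.15 (0.99 to 1.32). POMP, the chaperone that closes the assembly of the core, had a log2 ratio of −0.71 (−0.96 to −0.46) after LINC00461 knockdown. All 4 ubiquitin genes had intervals above 0 between the control libraries, with a median of 0.75, among them UBB at 0.77 and RPS27A at 0.97. Their summed level was 2089 CPM in R-U87MG si-NC and 1047 CPM in U87MG si-NC.

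Of the NFE2L1 axis 5 of 8 genes had intervals below 0 and 3 above 0 between the control libraries, beside 38.8% and 39.4% of all genes. NFE2L1 itself was at 607 CPM in R-U87MG si-NC and 1377 CPM in U87MG si-NC, a log2 ratio of −1.44 (−1.48 to −1.41), beside the members' median of 0.12. NFE2L2, of the same list, went the other way between these libraries, at 0.69 (0.60 to 0.78). DDI2, the protease that activates NFE2L1, was at −1.02 (−1.20 to −0.85) after LINC00461 knockdown, where 4 of the 8 genes had intervals above 0, led by MAFG at 0.94 (0.83 to 1.05), and 3 below 0, with a median of 0.05. Of 9 compared shuttle and p97 factors, 5 had intervals above 0 and 4 below 0 between the control libraries, with a median of 0.10, and VCP, the p97 ATPase itself, was at −0.29 (−0.33 to −0.24). FAF1, of the same list, held at most 2 counts and was not compared. Of the interferon and antigen-processing list 7 of 10 genes were compared, and between the control libraries 5 had intervals below 0 and 1 above, with a median of −0.58, a value that stands beside the lower PSMB10. In the LINC00461 comparison 6 of the 7 had intervals above 0 (all genes 33.1%), with a median of 0.35. The other gene, IRF1, was lower at −0.69 (−0.86 to −0.52), and PSMB10 was lower too.

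Sequence shared with other genes limits some single members. Of the 48 principal transcripts 30 shared no 50-base stretch with another gene and 9 shared more than 10%. Among these were PSMA6 (85.6%), PSMA2 (51.0%), PSMA1 (48.4%), PSMB10 (38.9%) and PSMD9 (35.8%). PSMA1, PSMA2 and PSMD9 had whole fragment numbers in only 1 library each. The 32 pseudogenes named after members held 283 to 628 counts together, and 7 of them rose above the 3-count floor, chiefly PSMC1P1 with 218 to 462 counts. Opposite-strand genes overlapped 19 members, and PSMA3-AS1 was the most abundant antisense RNA at 31.5 to 49.2 CPM. The libraries were strand-specific, but the counting program and its strand setting are not given in the sources used here.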

How the data were processed

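Total RNA from 4 cultures was sequenced by the authors on strand-specific libraries, and the submitters' notes name bcl2fastq, Trimmomatic 0.36, HISAT2 and GRCh38.p13; the counting program and annotation are not given in the sources used here. The deposited values are estimated counts (expected counts) per gene that were multiplied by 1 factor per library, set within each pair. They were divided by that factor and rounded; 94.3% to 94.6% of values above 0 were whole to within 0.02. IDs were matched to GENCODE 29 (57888 of 58226). Library sizes were scaled by TMM within each comparison (edgeR 4.0.16, R 4.3.3). Log2 ratios used a pseudocount of 0.5 and genes with a mean of at least 1 CPM, with 95% Clopper-Pearson intervals (scipy 1.17.1). A gene was called at 2-fold, and intervals excluding 0 were counted separately. The 5 members of lowest and highest ratio in each comparison were named, with others by role. Members and lists were chosen with earlier results of these data known. The steps were tested on simulated data.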

Additional observations from a re-analysis of the deposited data

How the results depend on the processing

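Alternative scalings, pseudocounts, filters, fold thresholds, thinning to equal depth and the use of whole fragment numbers alone left 165 of 184 summary values within 1.5 times (counts) or within their interval or spread (other values), and 483 of 498 values of the single members named by rule on the same side of 0 and of the interval. Of the rest, 9 came to include 0, and 5 of these were PSME4 after HDAC6 knockdown. With no filter the members at least 2-fold lower numbered 2 for LINC00461 and 3 between the control libraries, which adds members with 1 count or none. At 1.5-fold, 1 of 43 members was lower for LINC00461 (all genes 16.8%) and 8 of 43 were higher between the controls (all genes 23.1%). Under total counts the control comparison had 3 intervals below and 36 above 0 and a median of 0.385, where the median of all genes was 0.28. There 14 of 43 members changed from lower to higher, among them PSMB6, PSMB7 and PSMD7 at 0.13, 0.12 and 0.060. With whole fragment numbers only, 0 members were 2-fold lower in that comparison. Against protein-coding counts the members' shares were 0.595% and 0.600% in R-U87MG si-NC and si-HDAC6 and 0.447% and 0.394% in U87MG si-NC and si-LINC00461. The PSMB10 share was 4.91%, 11.4% and 12.6% by exon union length in R-U87MG si-NC, U87MG si-NC and si-LINC00461, and 5.08%, 5.37%, 11.7% and 12.95% undivided by length in all 4 libraries. The authors' scaling and leaving out 10 members with shared or fractional counts or low PSMC4 were chosen after seeing the data. The planned PSMB8 and PSMB9 shares were 0.0% in every library, as both are listed at 0. Their upper limits per kb of principal transcript reached 0.324% and 0.454%, which hold only if the zeros reflect the cells. No paired analysis was possible because each condition has 1 library. With 1 library per condition, culture-to-culture spread is unknown, and members under 260 counts in both libraries had the widest intervals.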
